A study of Mus musculus with 6 samples.

Results

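The VEGF and angiopoietin family was followed in cultures of brown preadipocytes after adipogenic induction. Pools with disrupted MICT1, a microprotein of brown fat, were compared with controls. The members were chosen by gene symbol as Vegfa, Vegfb, Vegfc, Vegfd, Pgf, Angpt1, Angptl2 and Angptl4, and all 8 are among the 13283 genes of the deposited table. RNA was sequenced from an immortalized line of mouse brown preadipocytes (BAT) with stable Cas9, in 3 libraries of pools in which MICT1 was disrupted with sgRNA (MICT1 KO) and 3 libraries of controls that received scrambled sgRNA (Scr, labelled WT). All 6 cultures were differentiated with the same adipogenic cocktail and then received 10 µM forskolin for 6 h, on day 6 according to the sample labels, so no culture without forskolin was compared. Forskolin activates adenylyl cyclase and raises cAMP. The KO libraries are from GFP-sorted pools rather than clones, and the labels do not tell which sgRNA each carries. All libraries share one cell line.

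VEGFs are secreted dimers that bind receptor tyrosine kinases on endothelial cells. Vegfa is the main driver of blood vessel growth, Vegfb and Pgf (placental growth factor) bind the receptor Flt1 but not Kdr, and Vegfc and Vegfd act mainly on lymphatic vessels through Flt4. Angiopoietin 1, from Angpt1, activates the endothelial receptor Tie2 and stabilizes vessels. The angiopoietin-like proteins share its domain layout but do not bind Tie2. Angptl4 inhibits lipoprotein lipase, and Angptl2 is a proinflammatory factor of adipose tissue that signals through integrins. Brown fat is densely vascularized, and Vegfa made by its adipocytes supports that network.

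The sequence just upstream of the start site is shown for both members that fell in MICT1 KO cells, Vegfa and Vegfb, and for the 2 with the largest rise, Vegfc and Angptl2. RefSeq promoters (GRCm38.p6) matched 6 of the 8 members, the others being Angpt1 and Angptl4. Each line gives the 250 bases before the start, 5′ to 3′ on the strand of the gene, and none of these windows overlaps an exon of the GENCODE annotation. The start is that of the RefSeq promoter table, which for Angptl2 leaves the last 10 bases of the window inside the gene as located in the text, and for the other 3 the window ends at the base before the gene. Capitals mark matches, on either strand, to the GC box, the CCAAT box or the half-site of the cAMP response element (CRE).
Vegfa, chr17:46032378-46032627, minus strand: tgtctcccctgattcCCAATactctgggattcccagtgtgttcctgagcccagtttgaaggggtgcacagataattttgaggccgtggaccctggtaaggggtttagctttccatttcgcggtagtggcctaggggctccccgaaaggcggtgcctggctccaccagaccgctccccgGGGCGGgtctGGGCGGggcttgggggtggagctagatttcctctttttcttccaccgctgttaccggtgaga
Vegfb, chr19:6987652-6987901, minus strand: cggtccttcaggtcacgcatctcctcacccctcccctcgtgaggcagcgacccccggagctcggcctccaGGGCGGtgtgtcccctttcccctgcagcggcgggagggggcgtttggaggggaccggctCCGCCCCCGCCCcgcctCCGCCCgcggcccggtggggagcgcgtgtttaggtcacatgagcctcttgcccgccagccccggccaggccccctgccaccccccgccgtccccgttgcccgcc
Vegfc, chr8:54077282-54077531, plus strand: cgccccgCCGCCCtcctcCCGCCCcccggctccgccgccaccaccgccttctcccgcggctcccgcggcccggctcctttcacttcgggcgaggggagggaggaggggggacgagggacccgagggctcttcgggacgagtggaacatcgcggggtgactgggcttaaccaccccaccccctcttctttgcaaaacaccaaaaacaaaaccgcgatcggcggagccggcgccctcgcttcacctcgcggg
Angptl2, chr2:33215711-33215960, plus strand: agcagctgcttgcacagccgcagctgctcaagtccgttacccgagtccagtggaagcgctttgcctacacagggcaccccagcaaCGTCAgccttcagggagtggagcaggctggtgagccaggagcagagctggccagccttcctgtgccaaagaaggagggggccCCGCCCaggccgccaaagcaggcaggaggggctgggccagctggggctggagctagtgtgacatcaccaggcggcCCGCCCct
Vegfb held 4 GC boxes, and Vegfa, Vegfc and Angptl2 held 2 each, so the GC box did not separate the members that fell from those that rose. GC boxes (GGGCGG) occur in 32.7% of the 32851 promoter windows of the same length. The only CRE half-site was in Angptl2, at 165 bases before the start, and such sites (TGACG) occur in 17.8% of windows. Vegfa held a CCAAT box at 235 bases before the start, a motif of 33.8% of windows. In Vegfd, whose window overlaps an annotated exon and is not shown, the one match was a TATA box (TATAAA, in 12.4% of windows) at 73 bases before the start. The windows of Vegfb and Vegfc are rich in G and C, at 76.4% and 71.6%, compared with 42.4% in that of Vegfd. None of these 5 windows matched the full CRE (TGACGTCA, in 1.55% of windows), the core of the hypoxia response element (ACGTG, in 16.6%) or the E-box that contains this core (CACGTG, in 6.02%), an AP-1 site (TGANTCA, in 6.75%) or the DR1 form of the PPAR response element, in which AGGTCA is repeated after 1 base (in 0.0335%). A second annotated start of Vegfa lies inside the gene, and its window, which overlaps an exon, held a match to the hypoxia response element core and one to the CRE half-site, which overlap each other, besides a GC box and a CCAAT box. The first of the windows of Pgf, which overlap exons too, held 2 GC boxes and its second window no match. These matches describe letters in the sequence, and binding was not measured.

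The deposited values are a normalized signal, which was read as estimated reads per gene over a size factor of each library. Multiplied back, the libraries correspond to 15437598 to 17917922 reads. Over all genes, 12507 passed a filter on low values (a signal of 10 or more in 3 or more libraries), and all 8 members passed it. As a check of the cell type, 10 of 10 adipocyte markers were listed and all 10 were lower in MICT1 KO cells, with a summed signal of 127944 to 152467 in Scr and 14763 to 21408 in MICT1 KO libraries. The study also reports lower adipogenic genes, such as Pparγ and Fabp4, in its CRISPR knockout cells, which it calls unexpected. It found no such change after MICT1 knockdown in differentiated brown adipocytes or in brown fat of mice that lack MICT1 there. Of 9 brown adipocyte markers 4 were listed. Ucp1, the uncoupling protein of brown fat, stood at only 20.8 to 30.5 in Scr and 1.05 to 9.33 in MICT1 KO libraries. Ebf2, a transcription factor of the brown lineage, was higher in MICT1 KO cells (log2 fold change 1.24, adjusted p = 2.03e-05 by limma-trend, no overlap), Cox7a1 did not pass (0.35, adjusted p = 0.141 by limma-trend) and Ppargc1a was below the filter. The summed signal of these 4 was 182 to 218 in Scr and 268 to 361 in MICT1 KO libraries, and Cidea, Dio2, Elovl3, Prdm16 and Cox8b were not among the genes listed. Of 15 endothelial markers only Cdh5, Flt1 and Egfl7 were listed, with a summed signal of 69.2 to 119 in Scr and 103 to 142 in MICT1 KO libraries, and the defining Pecam1, Kdr, Tek, Tie1 and Vwf were not among the genes listed. The level of MICT1 itself was not analysed here.

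Disruption of MICT1 was accompanied by a split within the family. Vegfa and Vegfb were lower in MICT1 KO than in Scr cells, and Vegfc, Vegfd, Pgf, Angpt1, Angptl2 and Angptl4 were higher. By limma-trend, 8 of 8 members had an adjusted p under 0.05, 2 lower and 6 higher, where 56.9% of all tested genes passed (28.3% lower and 28.5% higher). In each of the 8 the groups did not overlap, with the MICT1 KO values below in 2 and above in 6, which was so for 62% of all tested genes (31.2% below and 30.9% above). The median log2 fold change was 0.69 over the members and -0.0053 over all tested genes. The sizes were moderate, since 14.3% of tested genes had a larger absolute log2 fold change than Vegfc, the member that changed most, and 58.8% had a larger one than Vegfa, the member that changed least. The drop in adipocyte markers moved with these changes and its part in them was not tested. In bulk RNA, fewer cells of a type and less RNA per cell cannot be told apart.

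**Figure D1:**
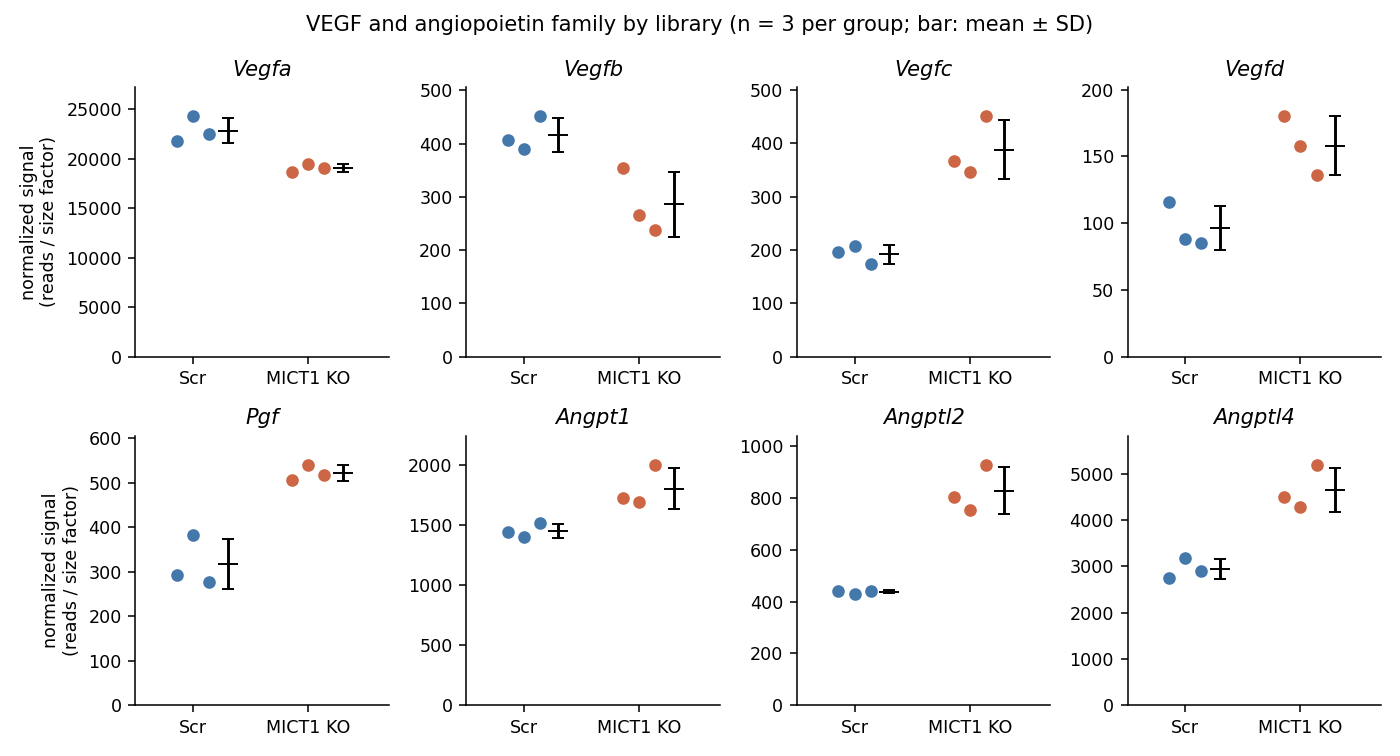
Normalized signal of each member (y axis, reads divided by the size factor of the library, from 0) in the 3 Scr and 3 MICT1 KO libraries, with 1 point per library and the mean ± SD beside them. The MICT1 KO points lie below the Scr points for Vegfa and Vegfb and above them for the other 6 genes.

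Vegfa (chromosome 17, from 46016993 to 46032377, minus strand, GRCm38) encodes the ligand of Kdr and Flt1. Its signal was 21773, 24289 and 22449.7 in the Scr libraries against 18696, 19485 and 19005.5 in the MICT1 KO libraries. The highest MICT1 KO value was thus below the lowest Scr value, though by a small margin next to the level of the gene. The means were 22837 ± 1302 (SD, n = 3) against 19062 ± 397 (SD, n = 3), which gives a log2 fold change of -0.26 (SE 0.055, 95% interval -0.37 to -0.15, adjusted p = 0.000399 by limma-trend). This was a fall of 16.5% in a gene whose Scr mean ranked 42 among the 13283 genes listed.

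Vegfb (chromosome 19, from 6982472 to 6987651), which binds Flt1 and has been linked to fatty acid handling, had a signal of 408, 389 and 452 in Scr against of 355, 266 and 237 in MICT1 KO libraries. MICT1 KO replicate 1 lay closer to the Scr values than the other 2 did. The log2 fold change was -0.56 (SE 0.13, 95% interval -0.84 to -0.28, adjusted p = 0.00130 by limma-trend), a mean lower by 1.46-fold.

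Pgf (chromosome 12, from 85166637 to 85177785) shares the receptor Flt1 with Vegfb but changed in the opposite direction. Its signal was 292, 382 and 278 in Scr libraries, where replicate 2 was the highest, and 507, 541 and 518 in MICT1 KO libraries. It rose 1.65-fold, with a log2 fold change of 0.73 (SE 0.12, 95% interval 0.49 to 0.98, adjusted p = 2.02e-05 by limma-trend).

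Both lymphatic ligands were higher in MICT1 KO cells. Vegfc (chromosome 8, from 54077532 to 54186454) had a signal of 196, 208 and 173 in Scr against of 366, 347 and 451 in MICT1 KO libraries. Each MICT1 KO value exceeded all Scr values by a wide margin, and the mean was 2.02-fold higher, the largest rise among the members (log2 fold change 1.004, SE 0.13, 95% interval 0.73 to 1.28, adjusted p = 1.69e-06 by limma-trend). Vegfd (chromosome X, from 164373522 to 164402650) was the least abundant member, with a signal of 116, 88.1 and 85.5 in Scr against of 180.2, 158 and 136 in MICT1 KO libraries. The groups came close to each other, at 116 and 136, and the interval was the widest among the members (log2 fold change 0.71, SE 0.19, 95% interval 0.32 to 1.10, adjusted p = 0.00302 by limma-trend). These values rest on 84 to 189 estimated reads per library.

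Angpt1 (chromosome 15, from 42424667 to 42676977), the agonist of Tie2, rose the least of the 6 higher members. Its signal was 1443, 1399.8 and 1512 in Scr against 1721, 1687 and 2001 in MICT1 KO libraries. MICT1 KO replicate 3 was the highest, and the other 2 were close to each other and above all Scr values. The log2 fold change was 0.31 (SE 0.071, 95% interval 0.16 to 0.46, adjusted p = 0.000908 by limma-trend). An antisense gene, Gm17473, overlaps 14.2% of the exon bases of Angpt1, and the counting step was not stated to use strand.

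Angptl2 (chromosome 2, from 33215951 to 33247725) had nearly the same signal in the 3 Scr libraries, at 441, 431 and 442, and 805, 752 and 928 in MICT1 KO libraries. It rose 1.89-fold (log2 fold change 0.91, SE 0.092, 95% interval 0.72 to 1.10, adjusted p = 3.55e-08 by limma-trend). The gene lies within Ralgps1 on the other strand and shares 0 exon bases with it.

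Angptl4 (chromosome 17, from 33774900 to 33781575), the inhibitor of lipoprotein lipase, was the second most abundant member. Its signal was 2755, 3175 and 2895 in Scr against 4489, 4285 and 5190.01 in MICT1 KO libraries, with no overlap. The rise was 1.58-fold (log2 fold change 0.66, SE 0.069, 95% interval 0.52 to 0.80, adjusted p = 6.06e-08 by limma-trend). MICT1 KO replicate 3 was the highest library for Vegfc, Angpt1, Angptl2 and Angptl4, and the lowest for Vegfb and, among the MICT1 KO libraries, for Vegfd.

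**Figure D2:**
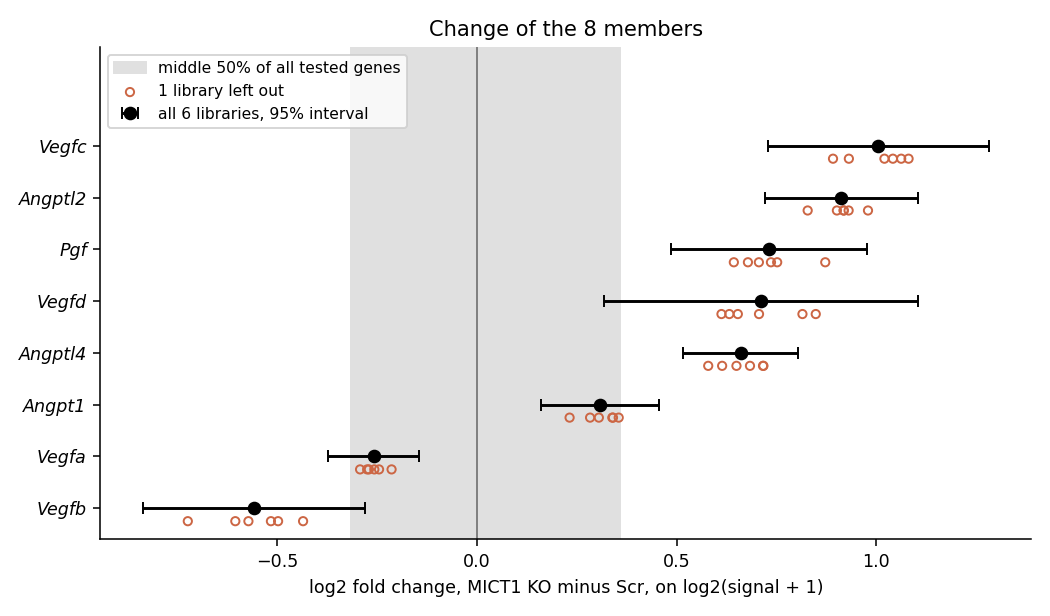
Log2 fold change of each member (x axis, MICT1 KO minus Scr on the log2(signal + 1) scale) with its 95% interval from all 6 libraries, open circles for fits with 1 library left out, and a grey band for the middle 50% of all tested genes (-0.31 to 0.36). Vegfb and Vegfa lie left of 0, and of the 8 members only Vegfa and Angpt1 have their estimate inside the band.

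Per exon length, the members spanned a wide range. In Scr libraries Vegfa stood at 325 ± 13.7 RPKM (SD, n = 3), rank 89 among 13122 genes with a length, and Angptl4 at 50.7 ± 2.92 RPKM. Angpt1 (17.0 ± 0.786) and Vegfb (15.8 ± 1.29) followed and their ranges over libraries overlapped. Below them came Pgf (6.67 ± 1.10), then Vegfc (4.79 ± 0.423) and Angptl2 (4.26 ± 0.118), which overlapped, and last Vegfd at 2.45 ± 0.463 RPKM. In MICT1 KO libraries Vegfa (273 ± 6.98 RPKM), Angptl4 (80.6 ± 8.46 RPKM) and Angpt1 (21.2 ± 2.10 RPKM) kept the first 3 places, each apart from the next. Vegfb fell from the fourth to the fifth place, at 10.9 ± 2.26 RPKM, and overlapped Pgf (11.0 ± 0.406 RPKM) above it and Vegfc (9.71 ± 1.42 RPKM) below it. Vegfc also overlapped Angptl2 (8.08 ± 0.900 RPKM), and Vegfd was last again at 4.02 ± 0.541 RPKM.

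**Figure D3:**
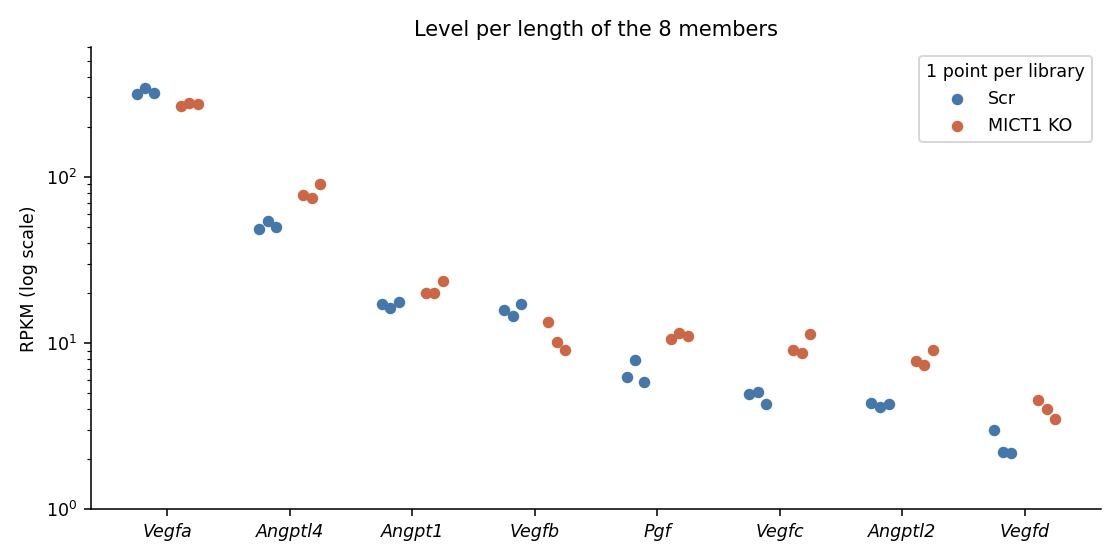
RPKM of each member (y axis, log scale) in the 3 Scr and 3 MICT1 KO libraries, 1 point per library, ordered by the Scr mean. Vegfa is highest in both groups, while the MICT1 KO points of Vegfb, Pgf, Vegfc and Angptl2 lie close together.

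The composition of the VEGF ligands shifted slightly. Vegfa made up 91.3%, 92.0% and 91.6% of the summed RPKM of the 5 ligands in Scr libraries and 87.6%, 89.1% and 88.7% in MICT1 KO libraries. Vegfc, Vegfd and Pgf together made up 3.91 ± 0.334% (SD, n = 3) in Scr against 8.03 ± 0.337% (SD, n = 3) in MICT1 KO libraries. The summed RPKM of the ligands was 355 ± 13.8 in Scr and 308 ± 5.29 in MICT1 KO libraries.

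Ratios within a library do not depend on its scaling. Vegfa exceeded Vegfc 63.5-, 66.9- and 74.2-fold in Scr and 29.2-, 32.1- and 24.1-fold in MICT1 KO libraries. Vegfa exceeded Angptl4 6.42 ± 0.105-fold in Scr and 3.41 ± 0.367-fold in MICT1 KO libraries (SD, n = 3). The ratio of Vegfc to Vegfb was 0.305 ± 0.05003 in Scr and 0.926 ± 0.291 in MICT1 KO libraries, above 1 only in MICT1 KO replicate 3. Among the ratios given, that of Lpl, the lipase, to its inhibitor Angptl4 moved most, at 6.60, 5.35 and 7.12 in Scr against 0.776, 0.700 and 0.741 in MICT1 KO libraries. Lpl thus exceeded Angptl4 in each Scr library and was below it in each MICT1 KO library. Lpl is also among the 10 adipocyte markers, all lower in MICT1 KO cells with a median log2 fold change of -3.96. The part of that drop in this ratio was not tested. These ratios are descriptions, since 3 libraries against 3 cannot give an exact p below 0.1.

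**Figure D4:**
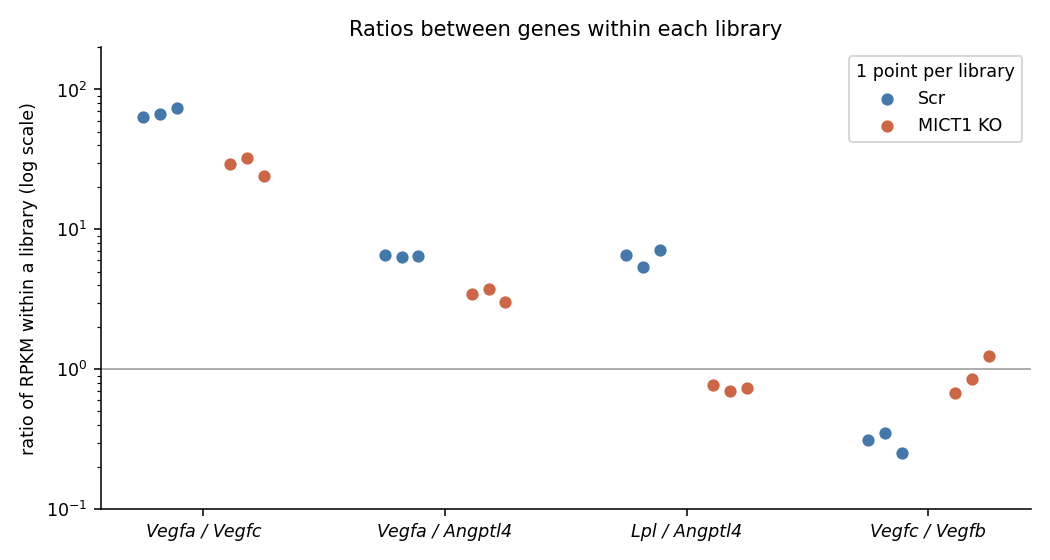
Ratio of the RPKM of 2 genes within a library (y axis, log scale) for 4 gene pairs in the 3 Scr and 3 MICT1 KO libraries, 1 point per library, with a line at 1. The ratio of Lpl to Angptl4 is above the line in Scr and below it in MICT1 KO libraries.

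Genes that act with the members were then counted by lists, and their median changes are read against -0.0053 for all tested genes. The counts of these lists and of the cell type markers are read against all tested genes, of which 28.3% were lower and 28.5% higher. A count near these shares says little about its list. Of 5 VEGF receptors and neuropilins, 3 were tested, 1 lower and 1 higher. Nrp1, a co-receptor for Vegfa, was 9571, 9499 and 10591.5 in Scr against 7048, 7710.5 and 7682 in MICT1 KO libraries (log2 fold change -0.40, adjusted p = 4.40e-06 by limma-trend). Nrp2, a co-receptor for Vegfc, moved the other way, at 1622, 1618 and 1539 in Scr against 2059, 2320.1 and 2341 in MICT1 KO libraries (log2 fold change 0.49, adjusted p = 1.71e-06 by limma-trend). The tyrosine kinase receptors were at or near the lower end of the table, with Flt1 at 3.81 to 15.8 over the 6 libraries (log2 fold change -0.87, adjusted p = 0.240 by limma-trend), Flt4 at 1.98 to 13.2 and below the filter, and Kdr not among the genes listed. Of 9 angiopoietin receptors and other ligands of the family, Angpt2 (log2 fold change -0.51, adjusted p = 0.266) and Angptl6 (-0.26, adjusted p = 0.180) were tested and did not pass in limma-trend. Angpt2, which antagonizes Angpt1 at Tie2, stood at 17.6 to 34.6, so Angpt1 exceeded it per exon length 29.6- to 52.7-fold in Scr and 60.9- to 80.5-fold in MICT1 KO libraries.

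Among 6 genes of the processing of Vegfc and Vegfd, which are secreted as precursors, 3 were higher and 1 lower of 4 tested, with a median log2 fold change of 0.34. Ccbe1, the cofactor that brings the protease to Vegfc, rose most, from 706, 841 and 765 in Scr to 2136, 2306 and 2585 in MICT1 KO libraries (log2 fold change 1.60, SE 0.079, adjusted p = 3.89e-13 by limma-trend). The groups were far apart, and Ccbe1 rose together with Vegfc. The protease genes that were listed changed less, with Pcsk7 at 0.34, Adamts14 at 0.34 and Furin, the one lower gene, at -0.16 on the log2 scale. The proteases Adamts3 and Pcsk5 were not among the genes listed, so their change is not known. Adamts14 overlapped between the groups and did not pass in limma-trend without control replicate 2 (0.35, adjusted p = 0.0678), control replicate 3 (0.28, adjusted p = 0.120), KO replicate 2 (0.27, adjusted p = 0.150) or KO replicate 3 (0.26, adjusted p = 0.158).

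On the side of Angptl4, 2 of 3 tested genes of its lipase targets and their maturation were lower and 0 higher. The convertase Furin, given above at -0.16, can also cleave Angptl4 and is not in this count. Lpl fell from 53808, 50279 and 61031 in Scr to 10307, 8872 and 11373 in MICT1 KO libraries (log2 fold change -2.44, SE 0.077, adjusted p = 2.85e-16 by limma-trend). Lipg, endothelial lipase, fell from a low level (log2 fold change -1.93, adjusted p = 0.00137), and Lmf1, needed for lipase folding, did not pass (0.23, adjusted p = 0.164 by limma-trend). Without its Scr libraries Lipg would not have met the filter on low values, so its call is not support. Of the 5 integrin subunits that bind Angptl2 or Angptl4, 4 were higher and 0 lower, with a median log2 fold change of 0.31. The largest changes were those of Itgb3 (1.51), Itgb5 (0.44) and Itgb1 (0.31), while Itgav was at -0.0086 (adjusted p = 0.917 by limma-trend) and changed sign without control replicate 2, KO replicate 1 or KO replicate 3.

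In the list of secreted inhibitors of vessel growth, the estimates of Thbs1, Serpinf1, Thbs2 and Vash1 (1.22) were above that of any member. Of 9 tested, 6 were higher and 0 lower, with a median log2 fold change of 0.57. The count and the median include Vash2, which is not an established inhibitor. Thbs1, thrombospondin 1, was 2897, 3166 and 2745 in Scr against 15253, 17558 and 14382 in MICT1 KO libraries (log2 fold change 2.42, SE 0.068, adjusted p = 3.93e-17 by limma-trend). Serpinf1, which encodes pigment epithelium-derived factor, rose by a log2 fold change of 1.60 (adjusted p = 1.01e-13) and Thbs2 by 1.49 (adjusted p = 1.74e-14 by limma-trend), each with no overlap between the groups. Sema3a (-0.31), Sema3f (-0.048) and Col18a1 (-0.16) did not pass. Among the 6 that rose, Vash1 did not pass without KO replicate 2 (adjusted p = 0.0635), and Vash2, whose groups overlapped by a small margin, not without control replicate 2 or 3 or KO replicate 1 or 3 (adjusted p from 0.0754 to 0.133 by limma-trend).

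Vegfa and Angptl4 are both known targets of hypoxia-inducible factor (HIF), and here they moved in opposite directions. Of 15 HIF target genes tested, 9 were lower and 2 higher, with a median log2 fold change of -0.57. Bnip3, a mitophagy receptor, fell from 13768.5 ± 1111 to 5304.5 ± 76.8 (SD, n = 3), with a log2 fold change of -1.37 (adjusted p = 2.74e-14 by limma-trend), followed by the glycolytic regulator Pfkfb3 (-1.30) and by Ndrg1 (-1.21). The exceptions were Adm, which encodes the vasodilator adrenomedullin (0.61, adjusted p = 2.84e-07), and Car9 (0.33, adjusted p = 0.000133 by limma-trend). Of 10 genes of the HIF pathway itself, 6 were lower and 1 higher, with a median log2 fold change of -0.43. The list mixes HIF subunits, of which Epas1 (-0.52) and Arnt (-0.34) were lower and Arnt2 higher, with genes that limit HIF. Of the latter, Egln1 (-0.76), Vhl (-0.51) and Egln3 were lower, so the count and median give no direction of HIF activity, which was not tested. Egln3, an oxygen-sensing prolyl hydroxylase and itself a HIF target, had a log2 fold change of -1.51. That of Hif3a was -1.86, with a signal of at most 28.5 in any library, and without KO replicate 1 the log2 fold change of Hif3a was -1.23. The one higher gene was Arnt2 (1.89), with 4.95, 34.3 and 20.4 in Scr libraries, and without control replicate 1 its log2 fold change was 1.15. Neither Hif3a nor Arnt2 would have met the filter on low values without the group in which it was higher, so these calls are not support. Hif1a was above all Scr values in the 3 MICT1 KO libraries but did not pass (0.12, adjusted p = 0.0596 by limma-trend), and with library size scaling or limma-voom it did (adjusted p = 0.0387 and 0.0432).

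Angptl4 is also a textbook target of the PPARs and of the glucocorticoid receptor, and the other genes of these lists are set beside it. Of 12 tested PPAR factors and targets, 10 were lower and 0 higher, with a median log2 fold change of -1.27, led by the lipid droplet protein Plin1 (-5.93), the fatty acid transporter Cd36 (-4.22) and the acyl-CoA synthetase Acsl1 (-3.76). Each of these 3 had an adjusted p from limma-trend of 7.70e-13 or below. The log2 fold change of Angptl4 was 0.66 in the same fit. Pparg, Fabp4, Cd36 and Plin1 of the PPAR list are also adipocyte markers, so the 2 lists are not independent. The part of HIF, the PPARs or the glucocorticoid receptor in the levels of the members was not tested. Of 6 glucocorticoid receptor genes, 3 were lower and 3 higher, with Zbtb16 at -2.43, the kinase Sgk1 at 1.66 and the receptor Nr3c1 at -0.71. Of 9 cAMP early-response genes, 5 were higher and 3 lower, with a median log2 fold change of 0.46. Nr4a2 (1.69), Fos (1.24) and Junb (1.21) rose most, and Pde4d (-1.001), Fosb (-0.67) and Sik1 (-0.20) were lower. Sik1 did not pass without control replicate 2 (-0.13, adjusted p = 0.108) or KO replicate 3 (-0.17, adjusted p = 0.0548 by limma-trend).

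**Figure D5:**
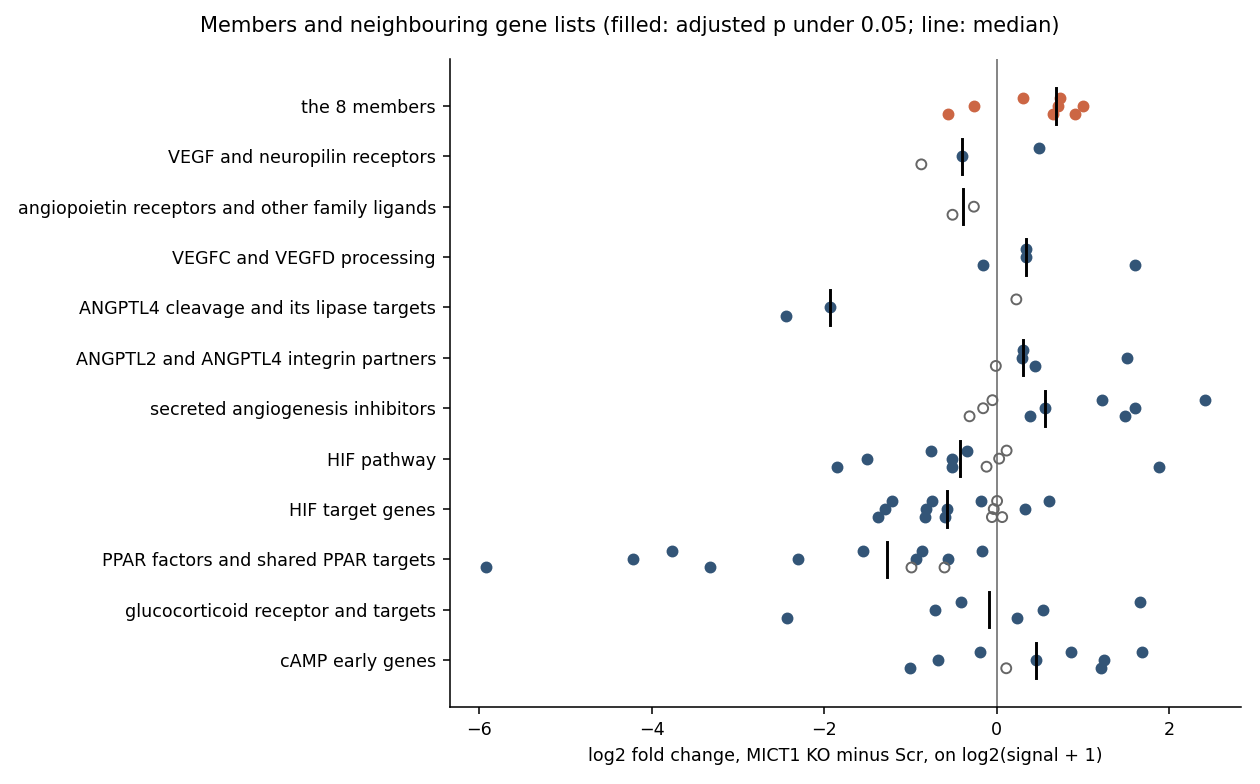
Log2 fold change (x axis, MICT1 KO minus Scr on the log2(signal + 1) scale) of each tested gene, 1 point per gene, in the 8 members and 11 lists of related genes, with filled points for an adjusted p under 0.05 and a line at the median of each list. The median is 0.69 for the members, 0.57 for the list of secreted inhibitors, in which Vash2 is counted, -0.57 for the HIF targets and -1.27 for the PPAR list.

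Markers of other cell types were measured beside these results. Of 6 tested genes of pericytes and smooth muscle, 2 were higher and 2 lower. Pdgfrb (log2 fold change 0.48) and Notch3 (0.76) were higher, and Acta2 (-1.33) and Cspg4 (-0.92) lower, each with no overlap. The summed signal was 2255 to 2764 in Scr and 2881 to 3107 in MICT1 KO libraries, with Pdgfrb the highest of these genes. Rgs5 was below the filter, and Myh11, Abcc9 and Kcnj8 were not among the genes listed. Of 4 macrophage genes listed among 10, Cd14 rose (log2 fold change 1.24, adjusted p = 2.44e-06 by limma-trend) and the other 3 did not pass, with Adgre1, Ptprc, Itgam and C1qa not among the genes listed. Of the 3 endothelial genes listed, Cdh5 rose from 5.93, 12.1 and 8.14 to 33.4, 30.6 and 25.9 (log2 fold change 1.71, adjusted p = 0.00275 by limma-trend), and Flt1 and Egfl7 did not pass. Without its MICT1 KO libraries Cdh5 would not have met the filter on low values, so its call is not support. Of 3 tested preadipocyte genes, 2 were lower and 1 higher. The highest of them, Pdgfra, was lower at -0.19 with overlapping groups, Dlk1 was lower at -3.47 and Ly6a higher at 1.39 on the log2 scale. The part of these cells in the levels of the members was not tested.

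The genes most like a member in pattern were taken for the 3 members with the largest absolute change, among 9927 genes with a mean signal of at least 100. For Vegfc the highest Pearson correlations of log2(signal + 1) over the 6 libraries were with Stmn1, Uxs1 and Acad8 (0.998, 0.998 and 0.997), for Angptl2 with Tia1, Extl2 and Syt7 (0.999, 0.998 and 0.998) and for Pgf with Klf11, Gcc1 and Phf21a (0.995, 0.994 and 0.994). The 6 points form the 2 groups, so a gene that rose between them with little spread within a group correlates highly with a member that rose. In all, 895, 1093 and 455 genes had a correlation over 0.95 with Vegfc, Angptl2 and Pgf.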

How the data were processed

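RNA-seq was measured in 3 MICT1 KO and 3 Scr libraries, grouped by their titles. Reads were aligned with Partek software to GRCm38/mm10, STAR and DESeq2 are also named in the submitters' processing notes, and the annotation and counting model are not given in the sources used here. The authors deposited a normalized signal per gene. Of the values under 20, 88.7% to 90.3% were whole multiples (tolerance 0.01) of a step of the library, taken as a size factor of 0.949 to 1.08, so they were read as estimated reads divided by it. Not all were whole, so no count test was run. A gene lost from one group would not be seen, since listed values are all above 0.

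Signals were compared as log2(signal + 1), which understates the change of low genes, with limma-trend (limma 3.58.1, R 4.3.3) and Benjamini-Hochberg adjustment over the 12507 genes with a signal of 10 or more in 3 or more libraries. The threshold was an adjusted p of 0.05. Some genes met the filter on low values only through the group in which they were higher, and their calls are not support. In simulated data with the same group sizes (12412 genes tested), 94 of 100 genes changed 2-fold and 77 of 100 changed 1.5-fold were recovered. The simulation gave all genes the same fixed dispersion and changed few of them, unlike these data. Its rates are therefore not the power of the fit used here. RPKM used the union of exons in GENCODE vM21, found for 98.8% of genes, 192 of them by another symbol. Positions are from RefSeq. All members were named, then the 3 largest called changes of each list, genes against its direction, and the 3 genes most like each of 3 members. Other genes given with values were chosen after these were seen. The members and lists were chosen with earlier results of these data known. Alternatives were library size and TMM scaling, limma-voom, other pseudocounts and filters, a replicate block, each library left out and another gene length. With 3 cultures a group, p covers the spread between cultures of 1 line.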

Additional observations from a re-analysis of the deposited data

How the results depend on the processing

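Each of the 8 members kept its direction and its adjusted p under 0.05 (limma) in all 14 alternatives. The filter on RPKM asked for at least 4 in any library. Vegfd passed that filter only through MICT1 KO libraries (4.55 and 4.03 RPKM, against at most 2.98 in Scr), so its result in that fit is not support. Leaving out 1 library at a time, the log2 fold change lay between -0.29 and -0.21 for Vegfa, -0.72 and -0.44 for Vegfb, 0.89 and 1.08 for Vegfc, 0.61 and 0.85 for Vegfd, 0.64 and 0.87 for Pgf, 0.23 and 0.35 for Angpt1, 0.83 and 0.98 for Angptl2 and 0.58 and 0.72 for Angptl4, and the highest adjusted p of any fit was 0.0201, for Vegfd. The replicate numbers are shared only as numbers: deviations of same-numbered libraries correlated at -0.024, -0.015 and 0.064. With the replicate block 3512 genes were lower and 3543 higher over all genes, against 3544 and 3569 without it, and the members stayed at 2 and 6. With the longest transcript in place of the union of exons, 6 of 8 members in Scr and 5 of 8 in MICT1 KO libraries kept their rank by RPKM, Angptl2 moving above Vegfc in both groups and above Vegfb in MICT1 KO libraries. With library size scaling 2 genes of the HIF pathway were higher in place of 1. Of 60 called genes in the lists, 52 kept their call in each alternative run. The call was lost with a library left out for Adamts14, Vash1, Vash2 and Sik1, for Epas1 of the HIF pathway (without control replicate 3 or KO replicate 3, adjusted p = 0.136 and 0.0889), for Pgk1 and Fkbp5 (without KO replicate 3, 0.0571 and 0.0542) and for Ppard (in 4 fits, 0.0610 to 0.103 by limma-trend). The sign turned, with a library left out, for genes that had not passed. Itgav ranged from -0.083 to 0.031 (positive without control replicate 2, KO replicate 1 or KO replicate 3), Sema3f from -0.30 to 0.22 (positive without control replicate 2, control replicate 3 or KO replicate 3), Ldha from -0.038 to 0.042 (negative without KO replicate 1), Cpt1b from -2.38 to 0.12 (positive without KO replicate 1, and lower with an adjusted p of 0.0313 by limma-trend without control replicate 3, where Ppard did not pass, so that the PPAR list stayed at 10 lower) and Ero1a from -0.093 to 0.011 (positive without KO replicate 3). The cause was not tested. Among the members Vegfd rests on the fewest reads, and Flt1 and Flt4 had a signal of at most 15.8 in any library, so moderate changes in them may not be detectable at this depth.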
